A study of Caenorhabditis elegans with 4 samples.

Results

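The broad binding regions of NHR-76 in Caenorhabditis elegans were described from the peak lists of a chromatin immunoprecipitation sequencing (ChIP-seq) experiment. They are the 274 peaks of the combined list that were at least 800 bp wide, out of 3635 peaks in that list (7.54%), and they were chosen by their width in the combined list alone. All samples came from L4 larval hermaphrodites of strain OP203, which carries the ed3 allele of unc-119 and the transgene wgIs203. This transgene, introduced by bombardment, holds nhr-76 fused to the tags TY1, EGFP and FLAG, along with unc-119, and the genotype lists no change of the native nhr-76. The sources used here do not name the promoter that drives the fusion. The worms were raised at 20 °C and fixed in 2% formaldehyde. Anti-GFP antibody was used on the chromatin of 2 ChIP samples, and 2 input samples came from the same strain. Peak lists of ChIP replicate 1 (1562 peaks), ChIP replicate 2 (3676 peaks) and the combined list were analysed here, and input data were not. No untagged strain is among the samples.

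NHR-76 belongs to the nuclear hormone receptors, transcription factors that bind DNA through a zinc-finger domain and whose activity can be set by small lipophilic ligands. The family is greatly enlarged in this nematode, and most of its members have no known ligand. In C. elegans, NHR-76 has been linked to fat loss driven by serotonin, acting in the intestine on the gene of the lipase ATGL-1. In ChIP-seq, DNA bound by the tagged protein is recovered as sheared fragments, and a peak is a stretch where these fragments pile up, so its width reflects fragment length as well as the extent of bound DNA. Each list is a single set of peaks, with coordinates in WormBase WS180 and 1 q-value per peak as the authors' caller gave it, and it holds no read counts. Shares of peaks are given with 95% Wilson intervals, which cover counting error only. Where a share is 0, the limit given with it is that of 3 peaks in the total. No test was run between broad and narrower peaks, because peaks of 1 list are not replicates. The sample titles and source names give which samples are ChIP and input, whereas a free-text field of the ChIP samples calls them input DNA and that of the input samples names ChIP DNA as well as input DNA. The titles were followed, and the lists belong to the samples titled ChIP. No label says whether the 2 ChIP replicates were separate cultures.

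The broad peaks were few but held much of the bound sequence. They covered 377.1 kb, or 27.1% of the bases in combined peaks, and their median width was 1054.5 bp, with quartiles of 893 and 1397.5 bp. The narrower 3361 peaks had a median width of 280 bp. By width, 119 were 800 to 999 bp wide, 105 were 1000 to 1499 bp, 18 were 1500 to 1999 bp and 32 were 2000 bp or more. Only 12 reached 3000 bp. The 2 widest peaks alone held 7.83% of the bases in broad peaks, and the widest 10 held 16.5%. The members nearest to it were I:1835196-1835995 at 800 bp, I:8133421-8134223 at 803 bp and X:1344673-1345480 at 808 bp. Just outside it were 3 peaks of 799 bp, X:11937083-11937881, I:12966427-12967225 and III:12002728-12003526. The q-values of these 6 peaks were 7.06e-05, 6.28e-09 and 1.06e-38 inside the limit, and 2.00e-40, 7.26e-16 and 2.03e-14 outside it, so strong peaks lay on both sides of it.

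Broad peaks were mostly strong ones in the combined list, although the strong peaks also included many narrower ones. Their median log10 q-value was -17.03, compared with -5.24 for narrower peaks. When all combined peaks were ranked by q-value and divided into 10 classes of equal size, 180 of the 274 broad peaks (65.7%) fell in the strongest class and 57 in the next. These classes also held 183 and 307 narrower peaks. Another 17 were in the third class and 20 were spread over the other 7. Within the broad peaks, Spearman's rho between width and q-value was -0.50 (274 peaks of 1 list, which share its library and threshold), so wider peaks tended to have smaller q-values. Both values come from the list that chose the members, and they are given as a description. Strength did not require width: the strongest narrower peak, X:16056119-16056834, was 716 bp wide with a q-value of 1.08e-57 and ranked 21, and the fourth strongest, II:10563305-10563731, was only 427 bp wide and ranked 34.

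**Figure D1:**
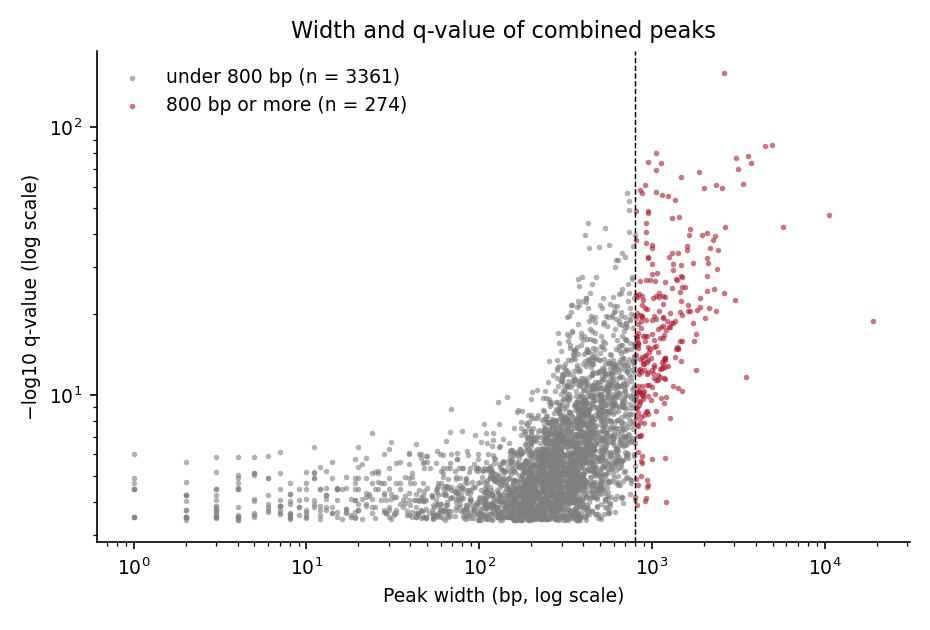
Width (bp, log scale) of each combined peak against −log10 of its q-value (log scale), with the 274 broad peaks in red and the 3361 narrower peaks in grey; the dashed line marks 800 bp. The broad peaks extend the upper right edge of the cloud, but a few at the bottom right are broad and weak.

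The strongest and the widest peaks overlapped only in part. Of the 10 members of smallest q, X:14525328-14526380 (1053 bp), X:11093647-11094598 (952 bp) and X:2996364-2997494 (1131 bp) were close to the width limit, while the 10 widest ranged from 3158 bp to 18986 bp. At the first of these X sites the combined, replicate 1 and replicate 2 peaks were 1053, 970 and 1058 bp wide, and their q-values were 6.81e-81, 1.40e-46 and 6.81e-81. At the second the widths were 952, 851 and 952 bp. At the third they were 1131, 1034 and 1145 bp. Replicate 1 thus drew these 3 strong sites with nearly the same extent as the combined list, which replicate 2 mostly repeats.

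Some of the widest sites were drawn differently by the replicates. Over the members as a set, however, replicate 1 did not cover less of the wider ones. Its median cover was 73.0% of bases over all members, 74.0% at 1000 bp or more and 76.6% at 1500 bp or more. At IV:633350-652335 the combined and replicate 2 peaks were each 18986 bp wide, with a q-value of 1.16e-19 in both. Replicate 1 had a single peak there of 2748 bp, with a q-value of 6.57e-12, which covered 14.3% of the site. This replicate 1 peak began 24 bp to the left of the site and ended 16262 bp short of its right edge. The neighbouring member, IV:621845-632394, was 10550 bp wide in the combined and replicate 2 lists, with a q-value of 8.54e-48. Its replicate 1 peak, with a q-value of 3.56e-25, was 9480 bp wide and covered 89.9% of it. Replicate 1 therefore held nearly all of the left member of this pair and only the left end of the right member. The tagged gene, nhr-76, is also on chromosome IV according to the RefSeq table of assembly WBcel235. Positions in that assembly were not compared with the WS180 peaks.

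On chromosome V, the third widest member lay at V:18715698-18721419. It was 5722 bp wide in the combined and replicate 2 lists (q-value 3.78e-43 in both), and 3 replicate 1 peaks of 1290, 446 and 2438 bp covered 72.9% of it. It ranked 37 in the combined list, but its best replicate 1 peak, with a q-value of 6.66e-09, ranked 334. To its left, V:18704078-18707558 was 3481 bp wide with a q-value of 1.88e-12. Replicate 1 had 1 peak of 1313 bp there, which covered 37.7% of the site, all of it to the right of the centre. By contrast, II:6345707-6349084 was 3378 bp wide in the combined and replicate 2 lists, and replicate 1 covered 99.6% of it with 1 unbroken peak of 3363 bp. The remaining wide sites were mostly split. V:6220785-6225768, of rank 2 in the combined list with a q-value of 2.32e-86, was 4984 bp wide and held replicate 1 peaks of 3191 and 1148 bp with a gap of 237 bp. I:7078986-7083497, of rank 3 with a q-value of 4.09e-86, was 4512 bp wide and held replicate 1 peaks of 2369 and 1051 bp with a gap of 697 bp. Replicate 1 covered 87.1% of the site on V and 75.8% of that on I. Wide regions in the combined list thus included some that were equally wide in replicate 1 and some that were not.

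**Figure D2:**
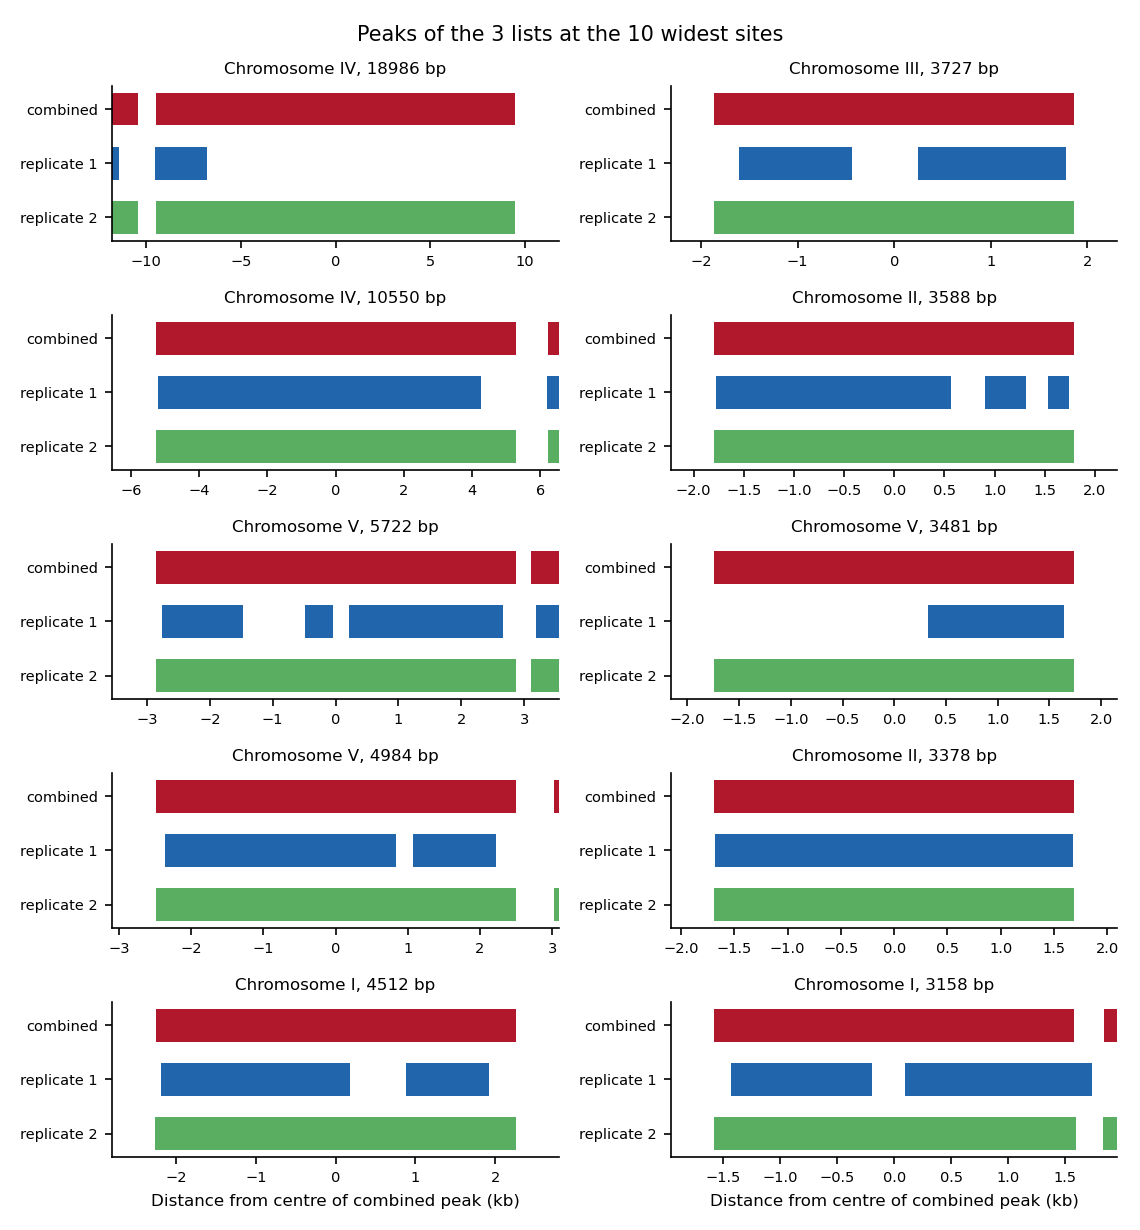
Peaks of the combined, replicate 1 and replicate 2 lists at the 10 widest sites, by distance from the centre of the combined peak (kb); each bar is a peak, cut at the edge of its panel. Replicate 2 follows the combined list closely at each site, while replicate 1 breaks 6 of the 10 sites into 2 or 3 peaks, leaves most of the 18986 bp site empty and covers the 3378 bp site on II as a whole.

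Nearly all broad peaks had some replicate 1 peak beneath them. Of the 274, 243 overlapped replicate 1 by at least 1 bp (88.7%, 95% CI 84.4 to 91.9), compared with 40.4% of all combined peaks and 36.5% of the narrower ones (95% CI 34.9 to 38.1). Of these members 210 met 1 replicate 1 peak, 29 met 2 and 4 met 3. By width class the overlap was 82.4% at 800 to 999 bp, 91.4% at 1000 to 1499 bp, 18 of 18 at 1500 to 1999 bp and 31 of 32 above that, and it was 67.8% for narrower peaks of 500 to 799 bp. The wider a peak, the more bases it offers to an overlap, so the base at its centre was also examined. Replicate 1 covered the centre of 203 broad peaks (74.1%, 95% CI 68.6 to 78.9), against 37.6% of all combined peaks and 34.6% of the narrower ones. In 40 broad peaks (14.6%) replicate 1 overlapped the site but missed its centre. The share was 2.86% of all combined peaks, of which 59.6% met no replicate 1 peak. In 17 of the 40 broad peaks the centre fell between pieces or beside them, the site being split, and in 23 a single piece lay to one side. The strengths of the lists were ordered alike, with Spearman's rho of 0.86 between the combined q-value and the best replicate 1 q-value over the 243 sites. This correlation is across sites of the same libraries, and how far the combined list includes replicate 1 reads is not given in the sources used here.

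Among peaks of like q-value the picture changed. In the strongest of the 10 classes, replicate 1 covered the centre of 149 of 180 broad peaks (82.8%, 95% CI 76.6 to 87.6) and of 181 of 183 narrower peaks (98.9%, 95% CI 96.1 to 99.7). The broad peaks of this class were the stronger ones, with a median rank of 122 compared with 228. Overlap by any base was nearly complete for both in this class, at 177 of 180 broad (98.3%) and 183 of 183 narrower peaks. In the second class the centre was covered in 38 of 57 broad peaks (66.7%, 95% CI 53.7 to 77.5) and 270 of 307 narrower ones (87.9%, 95% CI 83.8 to 91.1). Overlap by any base in that class was found for 82.5% of broad and 92.8% of narrower peaks, and here the intervals met (70.6 to 90.2 and 89.4 to 95.2). Peaks of 500 to 799 bp in the second class lay between, with 82.5% covered at the centre (95% CI 75.5 to 87.9). In the third class the order of centre cover was the other way, at 76.5% of 17 broad peaks and 69.4% of 346 narrower peaks. The interval for the broad peaks ran from 52.7 to 90.4. Overlap by any base in the third class was 88.2% for broad (95% CI 65.7 to 96.7) and 75.7% for narrower peaks. In classes 4 to 10 it was 20.0% of 20 broad peaks (95% CI 8.07 to 41.6) and 19.6% of narrower ones. Replicate 1 covered a median of 77.5% of a broad peak's bases in the strongest class and 53.9% in the second, against 89.2% and 81.7% for narrower peaks. Splits were nearly all in the strongest class, with 31 of its 180 broad peaks and 1 of its 183 narrower ones. These shares describe 1 pair of lists, and depth, which the lists do not give, was not accounted for.

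**Figure D3:**
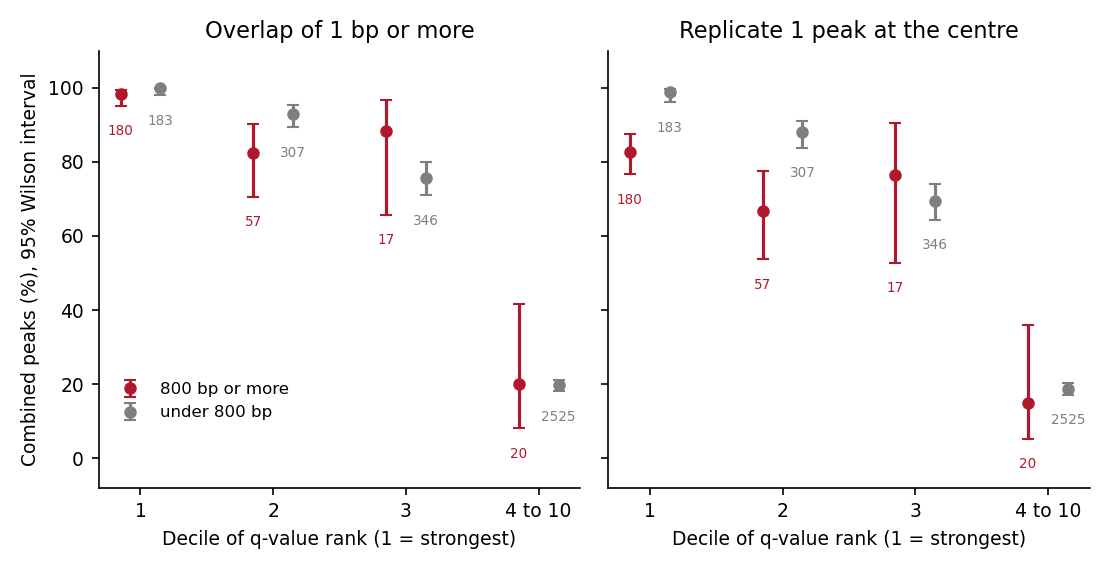
Share of combined peaks (%) that overlap a replicate 1 peak by at least 1 bp (left) or hold one at their centre (right), for broad (red) and narrower (grey) peaks in classes of q-value rank, with 95% Wilson intervals and the number of peaks under each point. In the 2 strongest classes the centre is covered in 82.8% and 66.7% of broad peaks and in 98.9% and 87.9% of narrower peaks.

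Replicate 1 drew most broad sites as narrower peaks. It covered a median of 73.0% of the bases of a broad peak, with quartiles of 47.5% and 89.0%. At 61 members (22.3%) it covered at least 90% of the bases, compared with 13.4% of all combined peaks. At 46 members (16.8%) it covered some but under 50%, compared with 4.21% of all combined peaks. Of all combined peaks, 59.6% met no replicate 1 peak, which lowers both of their shares. Over overlapped peaks alone, the median cover was lower for broad peaks, at 76.8%, than for narrower peaks (85.0%) or all combined peaks (84.0%). Over the 210 members with 1 replicate 1 peak, that peak had a median width of 803 bp against 1027.5 bp for the member, or 79.7% of its width. It was under 800 bp wide in 102 of them. The loss of width was uneven: the edge nearer to the member's edge fell short by a median of 26.5 bp, and the other by 193.5 bp. The longer shortfall was on the left in 96 members and on the right in 112. The narrowest remnant was at V:16366952-16367902, where a replicate 1 peak of 84 bp stood for a member of 951 bp (8.83% of its width). The width of a member and the share of it covered by replicate 1 were hardly related over the 243 overlapped members (Spearman's rho -0.07).

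A few sites met a wider peak in replicate 1. Its peak exceeded the member in 6 of the 210 sites, and in 25 it reached past at least 1 edge. At V:11531821-11532711, V:10201755-10202667 and V:5049371-5050258 the excess was small, with peaks of 892, 917 and 910 bp over members of 891, 913 and 888 bp. At IV:13388626-13389506 the member was 881 bp wide and the replicate 1 peak 1094 bp. On IV, the members IV:2709723-2710651 and IV:2710862-2711692 met the same replicate 1 peak of 1269 bp, which spanned the gap between them. That peak covered 23.0% of the first member, without its centre, and 100% of the second. Both of these members count among the 6, which are chosen by width and not by cover. On X, one replicate 1 peak of 1169 bp likewise touched both X:6741098-6742575 and X:6742778-6744868. Of the 137 replicate 1 peaks of 800 bp or more, 133 (97.1%) overlapped a broad combined peak. Conversely, 128 of the 274 members (46.7%) held a replicate 1 peak of that width, compared with 130 of all 3635 combined peaks (3.58%). The members were chosen by the same width, which bears on this contrast. The 4 broad replicate 1 peaks that overlapped no member were III:9825283-9826268 and III:8974678-8975658, which met combined peaks of 698 and 597 bp, and III:1299607-1300474 and V:5284166-5285291, which met none. The last of these was 1126 bp wide with a q-value of only 8.85e-05.

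**Figure D4:**
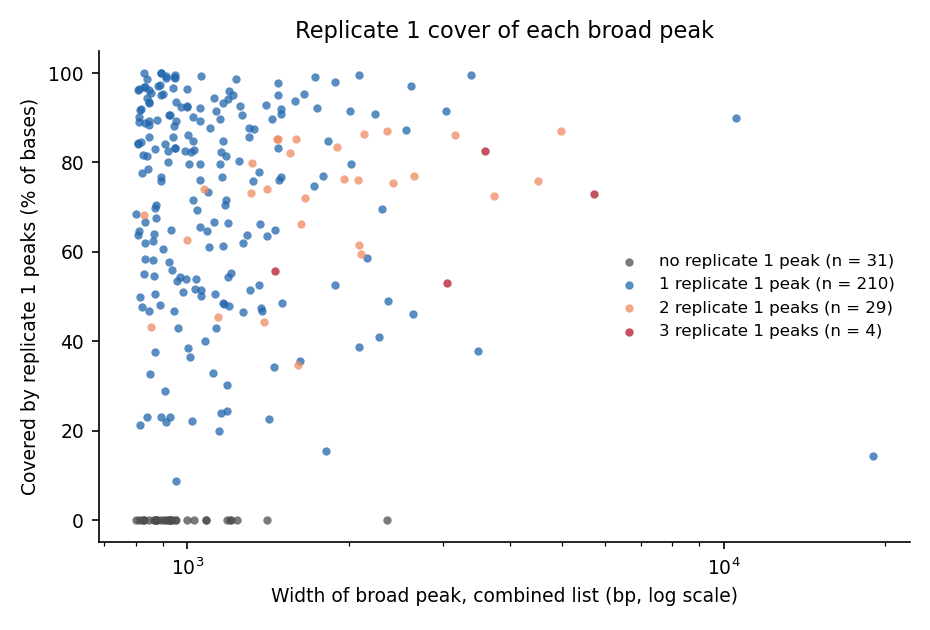
Share of each broad peak's bases that replicate 1 peaks cover (%) against its width in the combined list (bp, log scale), coloured by the number of replicate 1 peaks it meets. Members met by 2 or 3 replicate 1 peaks lie mostly to the right, the 31 with none lie mostly near 800 bp, and the widest member has a cover of 14.3%.

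Replicate 1 split 33 broad peaks into 2 or 3 pieces (12.0%, 95% CI 8.71 to 16.4), against 0.99% of all combined peaks and 3 of the 3361 narrower ones. With only the better-scoring 50% of replicate 1 peaks the share was 5.84% (16 members), and with replicate 1 peaks up to 300 bp apart joined it was 5.47% (15 members). Splitting went with width. It was found in 3 of 119 members of 800 to 999 bp, 9 of 105 of 1000 to 1499 bp, 7 of 18 of 1500 to 1999 bp and 14 of 32 of 2000 bp or more (43.8%, 95% CI 28.2 to 60.7). A wider peak has more room to be split, and the part of that in the trend was not tested. The split members were strong, with a median rank of 100 in the combined list, and the pieces together covered a median of 74.2% of them. In 25 of the 33 the widest piece also had the smallest q-value.

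The pieces of a site were often unequal in strength. II:10541896-10545483 was 3588 bp wide in the combined and replicate 2 lists, with a q-value of 6.48e-79 in both. Replicate 1 had 3 peaks there, of 2348, 407 and 207 bp. Their q-values were 2.30e-39, 6.61e-05 and 2.11e-04, so that the left piece was among the strongest of replicate 1, at rank 6, and the others were near its limit. At III:832775-836501 the pieces, of 1172 and 1532 bp, had q-values of 1.18e-13 and 1.02e-30. At I:8866376-8869423 the strongest of 3 pieces lay in the middle, with a q-value of 3.67e-21 against 4.18e-06 and 2.47e-06 at the sides. Other sites held pieces of like strength. At I:7656333-7659490 the pieces were 1242 and 1640 bp wide with q-values of 2.48e-18 and 8.89e-21. At V:13907419-13909774 they were 1487 and 594 bp wide with q-values of 7.02e-17 and 4.86e-18. The remaining 3-piece member, II:6890809-6892266, had weak pieces of 181, 419 and 344 bp, the best with a q-value of 4.85e-07.

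The gaps between pieces had a floor. The 37 gaps ran from 202 to 986 bp with a median of 293 bp, and 21 of them were 300 bp or less. The same floor was present between neighbouring peaks of every list: of 3629 gaps in the combined list, 1556 in replicate 1 and 3670 in replicate 2, 0 were under 200 bp, while 186, 54 and 189 were at least 200 bp but under 400 bp. The widths of broad peaks, and the number of pieces, are therefore widths and pieces above this spacing. The setting that produced it is not given in the sources used here.

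There were 31 broad peaks with no replicate 1 peak (11.3%), compared with 59.6% of all combined peaks. These 31 were narrower members, 922 bp at the median where the overlapped ones reached 1078 bp, and weaker, with a median rank of 1143. Of the 31, 3 were in the strongest of the 10 q-value classes. V:726129-728488 was 2360 bp wide with a q-value of 2.64e-21 in the combined and replicate 2 lists alike, and the nearest replicate 1 peak was 1012 bp away. IV:4415043-4415961 (919 bp, q-value 6.87e-15) was 8328 bp from the nearest replicate 1 peak, and X:4138888-4140073 (1186 bp, q-value 1.81e-14) was 750 bp away. The other widest members without replicate 1 were V:8384004-8385411 at 1408 bp, III:9807380-9808614 at 1235 bp, V:1474114-1475318 at 1205 bp and II:5332748-5333947 at 1200 bp. The median distance from these 31 sites to the nearest replicate 1 peak was 4001 bp, and 4 had one within 1000 bp.

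A small set of broad peaks was weak. In the weaker 5 of the 10 classes there were 11 broad peaks, and 0 of them overlapped replicate 1, which allows a share of up to 27.3%. In the same classes 186 of 1807 narrower peaks did (10.3%). The 5 members of largest q included a neighbouring pair, I:1835196-1835995 and I:1836219-1837140, with q-values of 7.06e-05 and 7.69e-05. Their nearest replicate 1 peaks were more than 74 kb away. IV:7397021-7397843 was the weakest member, with a q-value of 1.27e-04 at 823 bp, and was 948 bp wide in replicate 2 with a q-value of 6.04e-05. V:1474114-1475318, at 1205 bp, had a q-value of 1.06e-04. The fifth, III:8794244-8795155, was 912 bp wide in the combined list and 540 bp in replicate 2.

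Replicate 2 repeated the broad peaks almost without change. In 191 of 274 members (69.7%) the start, end and q-value equalled those of a replicate 2 peak, close to the 72.1% of all combined peaks, so the extent of broad sites in replicate 2 is no separate measurement. Of the 79 others with 1 replicate 2 peak, 53 were wider in replicate 2 and 26 narrower, by a median of 14 bp. No member lacked a replicate 2 peak (0 of 274, which allows a share of up to 1.09%), compared with 50 of all 3635 combined peaks (1.38%). Replicate 2 split 4 members, II:8811997-8812867, V:20707561-20708731, V:20780173-20781368 and III:8653800-8654825, each into 2 peaks. They were the only combined peaks that it split (4 of 3635, 0.11%). Replicate 1 had 1 peak at each of these 4 sites. Only 9 members were under 800 bp in replicate 2, and II:8134347-8135277 was the least covered, with a replicate 2 peak of 428 bp over a member of 931 bp (46.0%). Of 275 replicate 2 peaks of 800 bp or more, 264 (96.0%) overlapped a member.

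The broad peaks were spread over all 6 chromosomes, with the highest share on X. On X, 64 of 542 combined peaks were broad (11.8%, 95% CI 9.36 to 14.8), compared with 210 of 3093 on the autosomes (6.79%, 95% CI 5.96 to 7.73). The lowest share was on III, with 35 of 725 (4.83%, 95% CI 3.49 to 6.64), although III held the most peaks. The others ranged from 6.69% on IV to 8.55% on V. The replicate 1 list, whose widths did not choose the members, had the same order of X and autosomes, with 35 of 241 X peaks of 800 bp or more (14.5%, 95% CI 10.6 to 19.5) and 102 of 1321 autosomal peaks (7.72%, 95% CI 6.40 to 9.29). Of the 137 broad peaks of replicate 1, 133 overlapped a member, so these are largely the same sites and no separate support. In that list chromosome I came next to X, at 12.6%, and III and IV were lowest, at 6.69% and 6.64%. Among the 2 strongest q-value classes of the combined list, 43.3% of 120 X peaks and 30.5% of 607 autosomal peaks were broad.

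**Figure D5:**
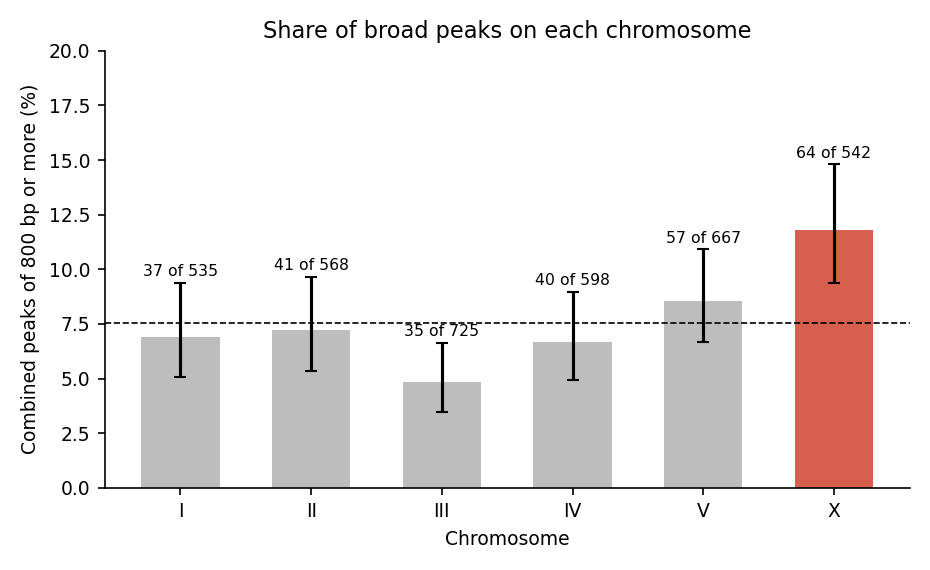
Share of combined peaks that are broad on each chromosome (%), with 95% Wilson intervals and the counts above the bars; the dashed line is the share over all chromosomes, 7.54%. X stands highest at 11.8% and III lowest at 4.83%.

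The broad X peaks were numerous, but the widest members lay on other chromosomes. The widest on X was the strongest site of all, X:16929252-16931864, with peaks of 2613, 2539 and 2613 bp in the combined, replicate 1 and replicate 2 lists. Its q-value was 3.22e-160 in the combined and replicate 2 lists and 2.72e-101 in replicate 1. None of the 12 peaks of 3000 bp or more was on X. That allows a share of up to 25.0%, and X held 23.4% of all broad peaks. Of the broad X peaks, 9 of 64 reached 1500 bp (14.1%, 95% CI 7.58 to 24.6), compared with 41 of 210 on autosomes (19.5%, 95% CI 14.7 to 25.4). These intervals overlap, so no difference in width is shown for X. Replicate 1 covered the centre of 54 broad X peaks (84.4%, 95% CI 73.6 to 91.3) and of 149 broad autosomal peaks (71.0%, 95% CI 64.5 to 76.7). These intervals also overlap, and overlap by any base was 89.1% on X and 88.6% on autosomes. Splitting was found in 5 of 64 on X and 28 of 210 on autosomes, with intervals that overlap (3.38 to 17.0 and 9.39 to 18.6). By chromosome it was highest on II, at 9 of 41 members, and lowest on IV, at 1 of 40. When the span between the outermost peaks of each chromosome was divided into 3 equal segments, 43.1% of broad peaks (95% CI 37.3 to 49.0) lay in the middle segment, and so did 38.9% of all combined peaks, a share inside that interval.

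Broad peaks had close neighbours. Another combined peak lay within 1000 bp of 146 members (53.3%, 95% CI 47.4 to 59.1), against 24.1% of all combined peaks and 21.7% of narrower ones. The median gap to the nearest peak was 892 bp for broad and 4023 bp for narrower peaks. For 67 members (24.5%) that gap was under 400 bp, compared with 9.66% of all combined peaks and 8.45% of narrower ones. With combined peaks within 300 bp of each other joined, 303 peaks were broad. In all, 98 members lay in 42 runs in which successive broad peaks had at most 5000 bp between them, of which 31 were pairs.

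The longest run, with 5 members, was on II at 10541896 to 10557507. Its members covered 60.7% of 15612 bp, the best of them ranked 5, and replicate 1 met 4 of them with 8 peaks in the stretch. A run of 4 on X, at 4138888 to 4148747, had 3 members that met replicate 1. On V, the 3 members between 6220785 and 6229959 covered 91.8% of 9175 bp, and replicate 1 covered 75.2% of their bases. Runs without replicate 1 support were rare: the weak pair on I at 1835196 to 1837140 and a pair on X at 15363388 to 15365965 met no replicate 1 peak, and these were 2 of the 42 runs.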

How the data were processed

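The authors deposited 3 peak lists with 1 q-value (a p-value adjusted by the caller) per peak. PeakSeq is the caller written in the deposited lines, and WormBase WS180 is the build per the file headers. How reads were aligned, how the inputs were used, which settings applied and how the combined list was made is not given in the sources used here. Samples were grouped by title, against which the free-text descriptions conflict. Members and measures were chosen with earlier results of these data known. Peaks overlapped when they shared at least 1 bp; cover is the share of a member's bases in replicate peaks; ranks are by q-value, then chromosome and start. Peaks named were the 10 widest and the 10 of smallest q, the widest of each chromosome, the 5 widest without replicate 1, the 5 with most pieces, the 5 of largest q, 3 on either side of the width limit, the 5 strongest narrower peaks, replicate 1 broad peaks outside the members, and others chosen after their values were seen. A genome of build WS180 was not used here, so genes and sequences were not analysed. Depth is unknown. Overlap code was tested on simulated data. Tables were made with pandas 2.3.3 and numpy 2.4.6, intervals with scipy 1.17.1 and figures with matplotlib 3.10.9, under Python 3.11.15.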

Additional observations from a re-analysis of the deposited data

How the results depend on the processing

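Over 48 alternatives to 8 values, 26 stayed within the interval of the value reported, or for a number of peaks within 1.5 times, and 22 moved; for the share of bases that interval is binomial over single bases, which are not independent, so it is very narrow and even a small shift counts as moved. The cause was not tested unless the alternative itself sets it. The replicate 1 list gave 137 broad peaks. The share of peak bases in broad peaks was 26.9% in the replicate 2 list, 26.1% in the replicate 1 list, 31.1% with neighbours within 300 bp joined and 25.5% without the 2 widest peaks. Overlap with replicate 1 was 74.1% at the centre, 65.7% at a reciprocal overlap of 50%, 79.1% with the better-scoring 50% of both lists, and 75.0%, 93.5% and 98.0% at widths of at least 500, 1000 and 1500 bp. Splitting fell to 5.84% with the better-scoring 50% of replicate 1 and 5.47% with its neighbours joined, and was 4.54%, 19.4% and 42.0% at those 3 widths. Centre cover was 66.5% at 500 bp, 66.0% at 1500 bp and 68.4% in the better-scoring 50% of both lists; these alternatives were added after the data were seen, as was leaving out chromosome I. At 1500 bp X held 18.0% and III 8.00% of the members, compared with 23.4% and 12.8%, and at 500 bp III held 17.7%. The median cover stayed between 66.4% and 76.6%. Leaving out a replicate is given by the alternatives that use 1 replicate list. No paired analysis was possible because no result came from a test and the inputs have no list here. Depth is unknown and limits every comparison of the lists.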
